A study of Homo sapiens with 11 samples.

Results

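The 10 genes described here encode receptors and SMAD proteins of the activin, BMP and TGF-beta pathways, namely ACVR1, ACVR1B, BMPR1A, TGFBR1, BMPR2, TGFBR2, SMAD2, SMAD3, SMAD4 and SMAD7. They are 10 of the 31325 gene symbols in the deposited values, and all 10 were found. ACVR1 was selected on its measured response, a lower signal with miR-365a-3p in both cell lines, so that response is a description with no test. The other 9 genes were added as receptors and SMADs. The cells were MDA-MB-231, a human breast cancer line, and SKOV3, a human ovarian cancer line that the study's text gives as its derivative SKOV3.ip1, each transfected with miR-365a-3p or with a control miRNA. There were 3 arrays each for MDA-MB-231 with miR-365a-3p, MDA-MB-231 with control miRNA and SKOV3 with miR-365a-3p, and 2 arrays for SKOV3 with control miRNA. The sample labels give a time of 48 h, while the design text of the series gives 24 h. All 4 groups had been transfected, so untransfected cells were not compared here.

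Ligands of this family bind a type II receptor kinase, which phosphorylates a type I receptor kinase, which in turn phosphorylates the receptor-regulated SMADs. TGF-beta and activin act mainly through SMAD2 and SMAD3, and BMPs through SMAD1, SMAD5 and SMAD9. SMAD4 is the common partner that enters the nucleus with either set, and SMAD6 and SMAD7 are inhibitory and are themselves induced by the pathway. In carcinoma cells the pathway is known for growth arrest and for epithelial-mesenchymal transition.

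The sequence of the transfected microRNA shows what was introduced into the treated cells. The RefSeq table of build GRCh38.p14 holds 2 human mature microRNAs with its seed, hsa-miR-365a-3p from chr16:14309340-14309361 and hsa-miR-365b-3p from chr17:31575478-31575499, both on the plus strand. Their 22 bases are identical, and the study's library lists the same sequence for miR-365. Capitals mark the seed, bases 2 to 8, and the arm from the other side of the hairpin is shown to set the seeds apart.
hsa-miR-365a-3p: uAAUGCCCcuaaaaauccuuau
hsa-miR-365a-5p: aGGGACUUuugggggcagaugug
The hairpin of MIR365A, at chr16:14309285-14309371 on the plus strand, carries the 3p arm near its 3′ end, here in capitals.
MIR365A hairpin: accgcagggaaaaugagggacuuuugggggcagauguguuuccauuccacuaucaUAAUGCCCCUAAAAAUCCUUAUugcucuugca
A message that pairs with the seed holds GGGCAUU. Transcript sequences were not used here, so no such site was looked for in the 10 genes.

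RNA was labelled with biotin and hybridized to Illumina BeadChips, and each deposited value is a signal on a log scale for a gene symbol. Most symbols were close to the floor of the arrays, with array medians between 7.35 and 7.41. The 75th percentile of the deposited values was 7.56 to 7.65 with miR-365a-3p and 7.86 to 7.93 in controls for MDA-MB-231, and 7.67 to 7.80 against 7.98 to 8.04 for SKOV3. This shift moved with the treatment, and its part in the results was not tested. Levels below are log2 signals after quantile normalization of the 11 arrays, a difference is the mean with miR-365a-3p minus the mean with control miRNA on that scale, and a call is an adjusted p under 0.05 from limma over all genes. Of the markers listed for the lines, ERBB2, PAX8, KRT8 and KRT19 were called higher in SKOV3 controls, by 3.26 for ERBB2, and KRT18 was not called. Of the 5 mesenchymal genes listed for MDA-MB-231 cells, ZEB1 was called higher there and SPARC higher in SKOV3 cells, so this list did not set the lines apart. HDAC4, which the study names as a miR-365a target, had differences of -1.08 and -0.75. Array signals are compressed near background, so a fold that ends there can understate the change. A lower signal in every cell and a loss from some of the cells cannot be told apart in bulk RNA.

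ACVR1, a type I receptor for BMPs and activins, was dim on every array with miR-365a-3p and bright on every control array. In MDA-MB-231 its level was 7.56, 7.62 and 7.69 with miR-365a-3p and 9.65, 9.78 and 9.86 with control miRNA. The SKOV3 arrays gave 7.60, 7.87 and 7.74 with miR-365a-3p and 9.55 and 9.71 with control miRNA. The groups did not overlap in either line, and the gap between them was larger than the range within any group. For MDA-MB-231 the mean was 7.62 ± 0.06 (SD, n = 3) when treated and 9.76 ± 0.10 (SD, n = 3) in controls, a difference of -2.14 or 4.40-fold. For SKOV3 it was 7.74 ± 0.14 (SD, n = 3) when treated and 9.63 ± 0.11 (SD, n = 2) in controls, a difference of -1.90 or 3.72-fold. Only 101 of the 31325 genes had a lower difference in MDA-MB-231 and 118 in SKOV3. The control mean exceeded that of 93.1% of genes in MDA-MB-231 and 92.4% in SKOV3, and the mean with miR-365a-3p that of 70.4% and 73.5%. Over 18 alternative settings the difference ranged from -2.31 to -1.98 for MDA-MB-231 and from -2.04 to -1.80 for SKOV3.

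The other type I receptors did not share this pattern, but their control levels were lower than that of ACVR1. ACVR1B, the type I receptor of activin, had a treated mean of 7.40 ± 0.03 (SD, n = 3) and a control mean of 7.47 ± 0.04 (SD, n = 3) in MDA-MB-231, where the difference of -0.07 was not called (95% interval -0.19 to 0.05). The SKOV3 means were 7.52 ± 0.12 (SD, n = 3) when treated and 7.69 ± 0.03 (SD, n = 2) in controls. The difference of -0.17 in SKOV3 was not called (95% interval -0.31 to -0.04, adjusted p = 0.101). It was called in 5 of 18 alternatives. These were the deposited values at -0.37 (adjusted p = 0.00216), median centring at -0.34 (adjusted p = 0.00445), cyclic loess at -0.23 (adjusted p = 0.019), the replicate block (adjusted p = 0.0461), and the fit without SKOV3 miR-365a-3p replicate 2 at -0.23 (adjusted p = 0.0173).
BMPR1A, a type I receptor of BMPs, was at 7.66, 7.82 and 7.97 with miR-365a-3p in MDA-MB-231 and at 7.99, 7.80 and 7.83 with control miRNA, so that the groups overlapped. In SKOV3 the treated arrays, at 8.02, 8.31 and 8.23, were just above the controls at 8.02 and 7.99. The differences of -0.05 (95% interval -0.27 to 0.16) and 0.18 (95% interval -0.06 to 0.42) were not called. On the deposited values the MDA-MB-231 groups did not overlap, at 7.48, 7.67 and 7.79 against 8.07, 7.93 and 7.96 in controls. The deposited SKOV3 values overlapped. Over 18 alternatives the differences ranged from -0.34 to 0.02 and from -0.11 to 0.26, and none was called. Control means of BMPR1A were 7.87 in MDA-MB-231 and 8.01 in SKOV3. From these levels a fall as large as that of ACVR1 could not have been registered. TGFBR1, the type I receptor of TGF-beta, lay within the crowd of genes at the floor, with a control mean above that of 50.2% of genes in MDA-MB-231 and 47.3% in SKOV3. Its differences of -0.02 and -0.07 were not called, and such a level leaves little room for a fall.

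Of the type II receptors, BMPR2 fell in both lines and TGFBR2 in MDA-MB-231. BMPR2, the main type II receptor of BMPs, was at 7.60, 7.56 and 7.55 with miR-365a-3p and at 8.85, 8.54 and 8.60 with control miRNA in MDA-MB-231. The SKOV3 arrays gave 7.85, 8.09 and 7.87 when treated and 8.78 and 9.03 in controls. Treated and control arrays were fully separated within each line. BMPR2 fell 2.13-fold in MDA-MB-231, a difference of -1.09 (standard error 0.099, adjusted p = 0.000108). The fall in SKOV3 was 1.96-fold, a difference of -0.97 (standard error 0.11, adjusted p = 0.000747).
TGFBR2, the type II receptor of TGF-beta, was at 8.76, 9.27 and 9.64 with miR-365a-3p and at 11.21, 10.56 and 10.68 with control miRNA in MDA-MB-231. The arrays did not overlap but spread more widely than those of any other of the 10 genes in this line. The difference was -1.59 (standard error 0.25, adjusted p = 0.00184), or 3.02-fold. In SKOV3 TGFBR2 was at 8.29, 8.91 and 8.66 with miR-365a-3p and at 8.67 and 8.67 with control miRNA, so that the control arrays lay between the others. The difference of -0.05 was not called (adjusted p = 0.967), and its 95% interval of -0.70 to 0.60 allows a change of either sign.
Replicate 1 of the miR-365a-3p arrays was the lowest of its group in both lines for 6 of the 10 genes (ACVR1, ACVR1B, BMPR1A, TGFBR2, SMAD4 and SMAD7), and it also had the lowest 75th percentile of deposited values in each line. Without it, the difference of TGFBR2 in MDA-MB-231 was -1.34 (adjusted p = 0.00551), and that in SKOV3, without the array of the same number there, was 0.11 (adjusted p = 0.913).

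Among the SMADs, SMAD3 fell in both lines, while no change was called for SMAD2 and SMAD4. SMAD3, which carries the signal of TGF-beta and activin receptors to DNA, was at 7.81, 7.72 and 7.94 with miR-365a-3p and at 9.14, 9.28 and 9.30 with control miRNA in MDA-MB-231. The SKOV3 arrays gave 7.30, 7.55 and 7.46 when treated and 7.91 and 8.06 in controls. Each line's groups stood apart, and the control level was lower in SKOV3. SMAD3 fell 2.67-fold in MDA-MB-231, a difference of -1.42 (standard error 0.082, adjusted p = 1.25e-05). In SKOV3 it fell by a difference of -0.54 (standard error 0.091, adjusted p = 0.00488). The SKOV3 call was lost without control replicate 2, at -0.45 (adjusted p = 0.0637), and its treated mean exceeded that of only 60.7% of genes.
SMAD2, its close relative, stayed between 7.37 and 7.48 on all 11 arrays, close to the floor. Its differences were -0.01 and -0.05, the latter with an adjusted p of 0.221, and in SKOV3 a fall was called under the other scalings, at -0.15 on the deposited values (adjusted p = 0.00454), -0.11 after median centring (adjusted p = 0.0094) and -0.08 after cyclic loess (adjusted p = 0.0241). SMAD4, the common partner of the other SMADs, was at 8.33, 8.57 and 8.76 with miR-365a-3p and 8.76, 8.37 and 8.35 with control miRNA in MDA-MB-231. The SKOV3 arrays gave 9.59, 10.10 and 9.93 when treated and 9.88 and 9.89 in controls. The groups overlapped in both lines, with differences of 0.06 (95% interval -0.31 to 0.43) and -0.01 (95% interval -0.43 to 0.40). SMAD4 was well above the floor, and these intervals leave out a fall of the size seen for BMPR2.
SMAD7, an inhibitory SMAD, was at 7.63, 7.65 and 7.70 with miR-365a-3p and 7.56, 7.59 and 7.55 with control miRNA in MDA-MB-231, and at 8.29, 8.40 and 8.37 against 8.18 and 8.15 in SKOV3. After quantile normalization SMAD7 rose by 0.10 in MDA-MB-231 (adjusted p = 0.0481) and by 0.18 in SKOV3 (adjusted p = 0.00765), but the sign turned to -0.10 and -0.12 on the deposited values and to -0.07 and -0.08 with each array centred on its median. The SKOV3 call was also lost with SKOV3 fitted alone (adjusted p = 0.0654) and with an intensity trend (adjusted p = 0.13). Without SKOV3 control replicate 2, which leaves 1 control array, the SKOV3 difference was 0.17 and was not called. The MDA-MB-231 call was lost or reversed in 15 of 18 alternatives. Among these were any single array of that line left out and the line fitted alone (adjusted p = 0.0534). Others were an intensity trend (adjusted p = 0.374) and the dimmer genes left out (adjusted p = 0.0696).

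**Figure D1:**
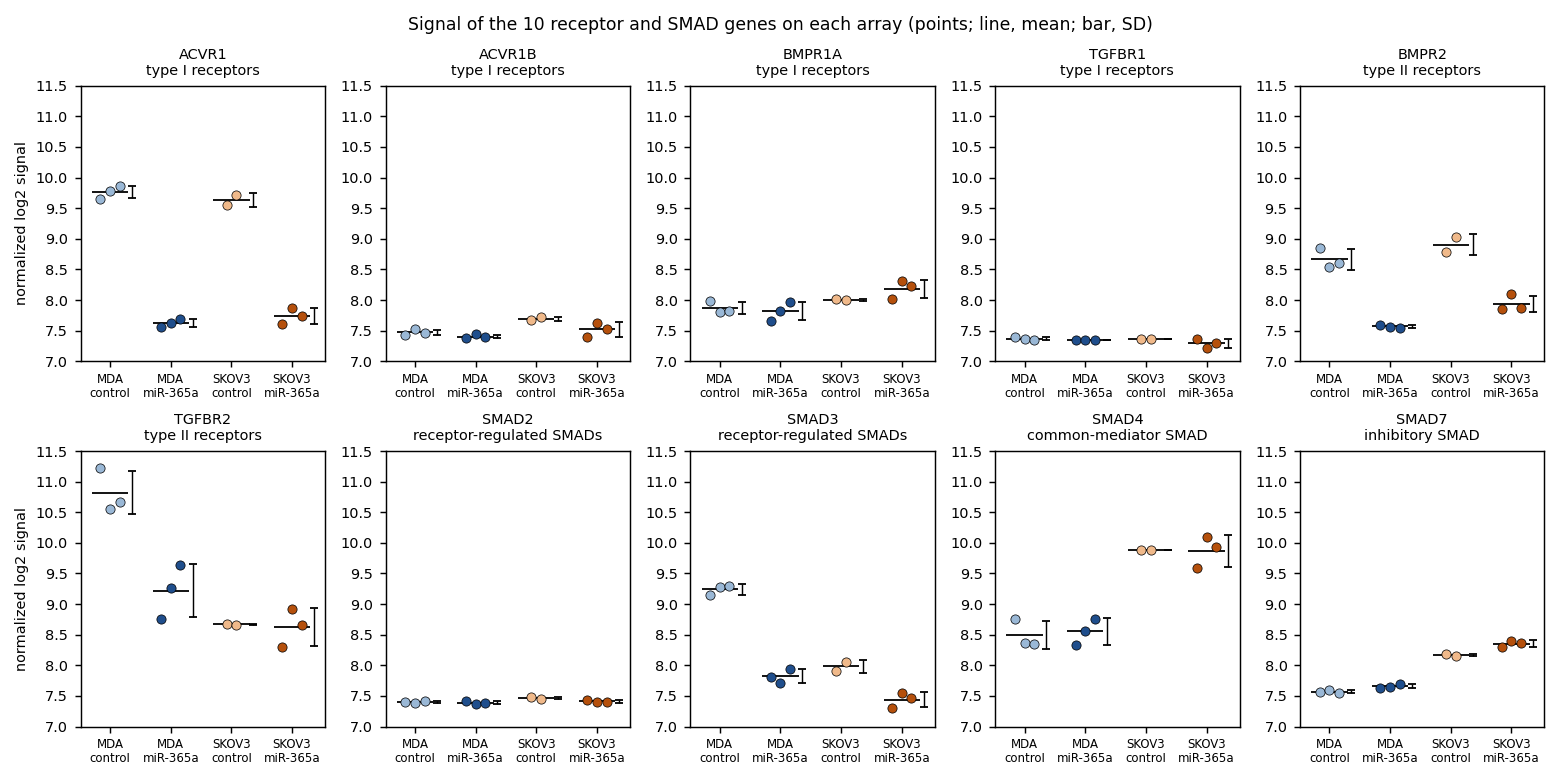
Normalized log2 signal (y axis) of each of the 10 genes on the 11 arrays, by group (x axis; points are arrays, the line is the group mean and the bar beside it the SD). ACVR1, BMPR2 and SMAD3 are lower with miR-365a-3p in both lines with no overlap, TGFBR2 in MDA-MB-231 only without overlap, and TGFBR1 and SMAD2 stay near the floor in all groups.

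Of the 9 genes other than ACVR1, 3 fell and 1 rose in MDA-MB-231, where 11.7% of all genes were called lower and 14.4% higher. In SKOV3 2 fell and 1 rose, where 7.11% of all genes were called lower and 7.25% higher. BMPR2 and SMAD3 fell in both lines, as 5.39% of all genes did. SMAD7 rose in both, as 5.76% of all genes did, but its sign turned on the deposited and the median-centred values. Arrays did not overlap between treatment groups for 3 lower and 1 higher of the 9 genes in MDA-MB-231, against 17% and 21% of all genes. In SKOV3 the same held for 4 lower and 2 higher, against 18.2% and 23.7%. These counts are for the normalized values. On the deposited values BMPR1A was separated in MDA-MB-231 and overlapped in SKOV3. The median difference of the 9 genes was -0.05 in each line, and that of all genes was 0.01 in each. When only the 15662 genes above the median of gene means were fitted, 8327 were called in MDA-MB-231 and 5132 in SKOV3, in either direction. That is a larger share than over all genes. The list was made with these responses known, so the counts describe it and no more.

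**Figure D2:**
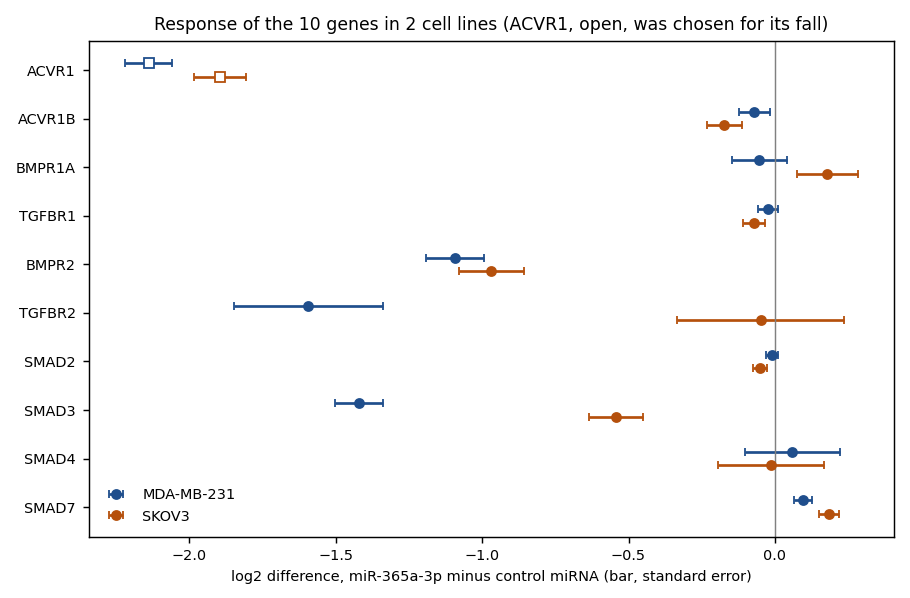
Difference in log2 signal between miR-365a-3p and control miRNA (x axis; bars are standard errors of the fit) for the 10 genes (y axis) in MDA-MB-231 and SKOV3. BMPR2 lies near -1 in both lines, SMAD3 and TGFBR2 lie further from 0 in MDA-MB-231, and ACVR1 (open squares) was chosen for its fall.

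Whether the response differed between the lines was tested directly for the 9 genes as the difference in SKOV3 minus that in MDA-MB-231. It was called for SMAD3 and for no other of the 9, against 1.3% of all genes called in that direction and 1.24% in the other. SMAD3 fell less in SKOV3 by 0.88 (standard error 0.12, adjusted p = 0.00758), and this was called under all 17 alternatives, with adjusted p between 0.00282 and 0.0461. The corresponding value for TGFBR2 was 1.54 (95% interval 0.68 to 2.41, adjusted p = 0.0874). It was called with an intensity trend in the variance (adjusted p = 0.018) and with the dimmer genes left out (adjusted p = 0.0484). For BMPR2 it was 0.12 (95% interval -0.21 to 0.46). The SKOV3 control level of SMAD3, 7.98, was so near the lowest signals on the arrays that a fall as large as in MDA-MB-231 could not have been registered, and the part of this lower starting level in the difference was not tested.

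The control arrays of both lines were compared for the 9 genes other than ACVR1, whose choice rested on these arrays. Of the 9 genes, 2 were called lower and 3 higher in SKOV3 controls than in MDA-MB-231 controls, where 7.76% of all genes were called lower and 8.34% higher. With only the 15662 genes above the median of gene means fitted, 5228 were called in either direction. TGFBR2 was lower in SKOV3 controls, with 8.67 ± 0.01 (SD, n = 2) against 10.82 ± 0.35 (SD, n = 3), a difference of -2.14 (standard error 0.28, adjusted p = 0.000907) or 4.42-fold. SMAD3 was lower by a difference of -1.26 (standard error 0.091, adjusted p = 3.04e-05) or 2.39-fold.
SMAD4 was higher in SKOV3 controls, with 9.89 ± 0.001 (SD, n = 2) against 8.49 ± 0.23 (SD, n = 3), a difference of 1.39 (standard error 0.18, adjusted p = 0.00082). SMAD7 was higher by 0.60 (standard error 0.034, adjusted p = 7.57e-06). ACVR1B was higher by 0.22 (adjusted p = 0.0398), a call that was lost in 9 of 17 alternatives, each of them with an array left out.
For ACVR1 the control means differed by -0.13, which is given without a test. BMPR2 differed by 0.24 (95% interval -0.01 to 0.49), BMPR1A by 0.13 (95% interval -0.10 to 0.37), SMAD2 by 0.06 and TGFBR1 by -0.01, and none of these was called. BMPR2 was called on the deposited values, at 0.32 (adjusted p = 0.0432). SMAD2 was called on the deposited values at 0.13 (adjusted p = 0.0091), after median centring at 0.11 (adjusted p = 0.00731) and after cyclic loess at 0.10 (adjusted p = 0.00818). These comparisons share their control arrays with those of the response. With miR-365a-3p the level of TGFBR2 was 9.22 ± 0.44 (SD, n = 3) in MDA-MB-231 and 8.62 ± 0.31 (SD, n = 3) in SKOV3.

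**Figure D3:**
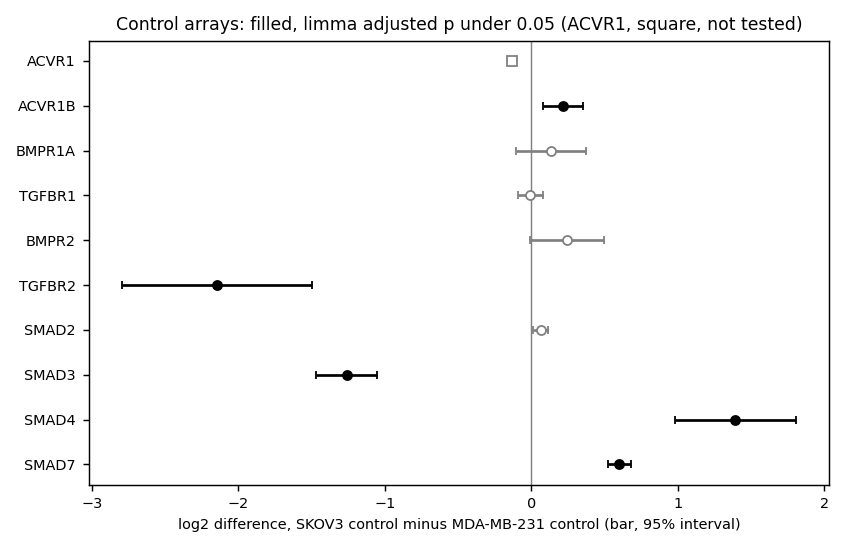
Difference in log2 signal between the SKOV3 and the MDA-MB-231 control arrays (x axis; bars are 95% intervals) for the 10 genes (y axis), with ACVR1 as a square and without an interval. TGFBR2 and SMAD3 lie below 0 and SMAD4, SMAD7 and ACVR1B above it, and filled circles have an adjusted p under 0.05 from limma.

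The surrounding pathway was described with 86 further genes listed by role. Of these, 23 fell and 13 rose in MDA-MB-231, where 11.7% and 14.4% of all genes did, and 8 fell and 3 rose in SKOV3, where 7.11% and 7.25% did. The counts by role below stand against the same shares, and in the small groups a few genes decide them. The share called in either direction was larger among genes above the median of gene means. The median difference of the 86 genes was -0.01 and -0.02. The split moved with the scaling, since 29 fell and 5 rose in MDA-MB-231 and 21 fell and 2 rose in SKOV3 on the deposited values. Without control replicate 1 and without control replicate 2 of SKOV3, 7 and 5 genes were called there. In the control arrays of both lines, 55 of the 86 genes lay below the 75th percentile of gene means.

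Of the 19 ligands, 2 fell and 1 rose in MDA-MB-231, and 1 fell in SKOV3. AMH, anti-Müllerian hormone, was the ligand that fell in both lines, by differences of -0.36 and -0.23 at a low level. Of the 7 genes of the latent TGF-beta complex and its release, 4 fell in MDA-MB-231 and 1 in SKOV3. THBS1, a matrix glycoprotein that can activate latent TGF-beta, was at 9.14, 9.08 and 9.28 with miR-365a-3p and at 11.70, 11.48 and 11.65 with control miRNA in MDA-MB-231, and at 8.04, 8.02 and 8.05 against 9.22 and 9.42 in SKOV3. All treated arrays were below the controls of their line, and the differences were -2.44 and -1.28. Of the 13 extracellular antagonists, 2 fell and 1 rose in MDA-MB-231 and 1 fell in SKOV3, and FSTL1, a secreted follistatin-like protein, had differences of -2.02 and -1.45. Leaving out SKOV3 control replicate 1 (adjusted p = 0.0597) or 2 (adjusted p = 0.0996) ended the SKOV3 call of FSTL1.

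Of the 6 other type I and type II receptors, 1 fell in MDA-MB-231 and none was called in SKOV3. The receptor that fell, ACVR2A, a type II receptor of activin, had a difference of -0.19 and was named after its value was seen. In the group of 7 co-receptors and the pseudoreceptor, 2 fell and 1 rose in MDA-MB-231 and none was called in SKOV3. RGMB, a BMP co-receptor, was at 7.42, 7.50 and 7.49 with miR-365a-3p and at 8.69, 8.42 and 8.61 with control miRNA in MDA-MB-231, a difference of -1.10 (adjusted p = 9.07e-06). The SKOV3 arrays were near the floor in both groups, and the difference between the responses was 1.02 (adjusted p = 0.000964).

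The other SMADs were named after their values were seen. SMAD5, a SMAD of the BMP branch, was at 7.80, 7.87 and 7.90 with miR-365a-3p and at 8.93, 8.72 and 8.80 with control miRNA in MDA-MB-231, where it fell by 0.96 on the log2 scale (adjusted p = 0.00714). The SKOV3 arrays gave 7.90, 8.85 and 8.60 when treated and 8.95 and 8.98 in controls, and the difference of -0.51 was not called (adjusted p = 0.198). It rested on single arrays, ranging from -0.73 to -0.24 over the alternatives, and was called without SKOV3 miR-365a-3p replicate 2, at -0.71 (adjusted p = 0.0414). Without SKOV3 miR-365a-3p replicate 1 the difference between the responses of SMAD5 was called, at 0.72 (adjusted p = 0.0166). SMAD6, an inhibitory SMAD of the BMP branch, rose by 0.34 in MDA-MB-231 (adjusted p = 0.00503), while in SKOV3 its difference of -0.25 was not called (adjusted p = 0.0564). The rise of SMAD6 was not called on the deposited values (adjusted p = 0.999) or after median centring (adjusted p = 0.844). The SKOV3 difference of SMAD6 was called in 4 of 18 alternatives, at -0.47 on the deposited values (adjusted p = 0.0245), at -0.43 after median centring (adjusted p = 0.0327), with the dimmer genes left out (adjusted p = 0.0368) and at -0.36 without control replicate 2 (adjusted p = 0.0401). SMAD1 and SMAD9, which also serve the BMP branch, stayed near the floor and were called in neither line.
Of the 17 regulators of receptors and SMADs, 6 fell and 3 rose in MDA-MB-231, and 1 fell and 1 rose in SKOV3. USP9X, a deubiquitinase that acts on SMAD4, had differences of -0.59 and -1.12. PPM1A, a phosphatase of receptor-regulated SMADs, rose by 0.20 and 0.19 after quantile normalization, but the sign in MDA-MB-231 turned to -0.10 on the deposited values and to -0.07 after median centring. The SKOV3 call for PPM1A was lost without control replicate 2 (adjusted p = 0.0713).

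The 13 target genes moved in both directions, with 5 falls and 6 rises in MDA-MB-231 and 4 falls and 2 rises in SKOV3, against 11.7% and 14.4% of all genes in MDA-MB-231 and 7.11% and 7.25% in SKOV3. Of the 15662 genes above the median of gene means, 8327 and 5132 were called in either direction. CTGF (now named CCN2), a secreted matrix protein induced by TGF-beta, fell from 12.72, 12.77 and 13.09 to 9.33, 9.81 and 9.80 in MDA-MB-231, a difference of -3.21 (standard error 0.14, adjusted p = 3.45e-06). The SKOV3 arrays gave 8.45 and 8.42 with control miRNA and 7.64, 7.82 and 7.74 with miR-365a-3p, a difference of -0.70 (adjusted p = 0.0179). Leaving out control replicate 1 (adjusted p = 0.119) or 2 (adjusted p = 0.113) ended this call. The responses of CTGF differed between the lines by 2.52 (adjusted p = 0.000779).
PMEPA1, a feedback inhibitor of TGF-beta signalling, fell by 1.62 on the log2 scale in MDA-MB-231 and by 1.04 in SKOV3. Its SKOV3 call was lost when control replicate 1 (adjusted p = 0.144) or control replicate 2 (adjusted p = 0.121) was left out, and with SKOV3 fitted alone (adjusted p = 0.0882). TGFBI, a TGF-beta-induced matrix protein, had differences of -1.22 and -0.995, the latter not called with SKOV3 fitted alone (adjusted p = 0.0536).
The ID genes, which encode inhibitors of helix-loop-helix factors and are classic BMP targets, were higher with miR-365a-3p wherever they were called. ID2 was at 8.89, 8.58 and 8.46 with miR-365a-3p and at 7.47, 7.50 and 7.42 with control miRNA in MDA-MB-231, and at 11.18, 10.67 and 10.97 against 10.06 and 10.06 in SKOV3. ID2 rose by 1.18 in MDA-MB-231 (adjusted p = 0.000372) and 0.88 in SKOV3 (adjusted p = 0.00572), the latter lost without control replicate 2 (adjusted p = 0.0544). ID1, ID3 and ID4 were named after their values were seen. In MDA-MB-231 ID1 rose by 0.99 and ID3 by 1.93, and ID4, with a difference of 0.20, was not called. ID4 was called there after cyclic loess, at 0.47 (adjusted p = 0.0432), and with the line fitted alone, at 0.19 (adjusted p = 0.00661). In SKOV3 ID4 rose by 0.85, a call that ended when control replicate 2 was left out (adjusted p = 0.0557) or SKOV3 was fitted alone (adjusted p = 0.0734), while ID1 and ID3 had differences of 0.17 and 0.50 that were not called. Without SKOV3 miR-365a-3p replicate 2 the difference of ID3 was 0.71 and was called (adjusted p = 0.00577). The remaining target genes were also named after their values were seen. In MDA-MB-231 JUNB (0.45 to 0.82 over the alternatives), TSC22D1 (0.62 to 0.82) and ATOH8 (0.08 to 0.22) rose. These were not called in SKOV3. ATOH8 was not called in MDA-MB-231 on the deposited values. CDKN1A fell in MDA-MB-231 (-0.98 to -0.58) and was not called in SKOV3 in the main fit. A fall in SKOV3 was called in 4 of 18 alternatives. Among these were the deposited values at -0.45 (adjusted p = 0.00249) and median centring at -0.41 (adjusted p = 0.00328). The difference between its responses was called in 3 of 17 alternatives. KLF10 fell in both lines (-0.33 to -0.23 and -0.27 to -0.13). Its SKOV3 call was lost without control replicate 1, at -0.15, and without control replicate 2, at -0.13. CDKN2B was called in neither line.

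**Figure D4:**
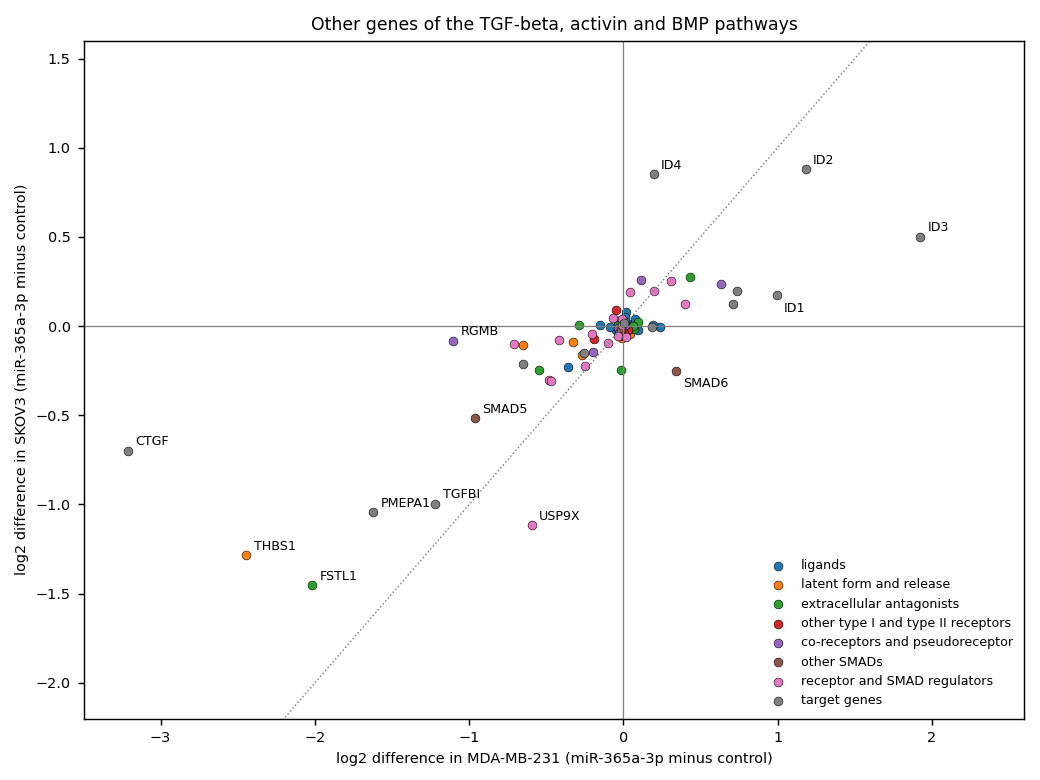
Difference in log2 signal between miR-365a-3p and control miRNA in MDA-MB-231 (x axis) and SKOV3 (y axis) for the 86 further pathway genes, coloured by role. The dotted line marks equal responses. CTGF, THBS1, FSTL1, PMEPA1 and TGFBI lie at the lower left, and ID2 and ID3 at the upper right.

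Over the 11 arrays, the genes with the profile most like that of ACVR1 were TM9SF4, ZC3H3, ARHGAP23, ZC3H4 and LOC400455, with Pearson correlations between 0.995 and 0.998 among 15661 genes above the median signal. These 11 points fall into 4 groups, 2 of them treated, and the correlations are given as a description. TM9SF4, a membrane protein, had differences of -1.49 and -1.30. Of the other 9 receptor and SMAD genes, BMPR2 had the highest correlation with ACVR1, at 0.938, followed by SMAD3 at 0.798 and TGFBR2 at 0.573, and BMPR1A, SMAD4 and SMAD7 had values below 0.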

How the data were processed

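Expression was measured on 11 Illumina HumanHT-12 arrays in 4 groups. The deposited log2 values, 1 per gene symbol, come from quantile normalization in lumi by the authors. Whether lumi's variance-stabilizing transformation was used, how probes were combined and any background correction are not given in the sources used here. Since the deposited columns did not share a distribution, quantile normalization of all 11 columns was repeated (limma 3.58.1, R 4.3.3). Alternatives were the deposited values, median centring, cyclic loess, a filter on dim genes, an intensity trend, a replicate block, each line alone and each array left out. A model with 4 group means was fitted to all 31325 genes (lmFit, eBayes), with Benjamini-Hochberg adjustment over all of them. A run on simulated data, with independent noise and few changed genes, checked the code and not the p-values of these arrays. No detection values were used here, so genes near the floor were not sorted into present and absent. The small number of arrays limits the precision. The labels do not say that replicates were separate cultures, so p-values measure only the spread between these arrays.

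The 10 genes and the lists were chosen with earlier results of these data known. All 10 genes are reported. Of the 86 pathway genes, listed by role, all were found, 2 of them under an older symbol, and those named had the largest mean change (up to 4 per role) among those called in both lines with the same sign, or the smallest adjusted p for a difference between lines (up to 3). Genes named outside this rule are said to be so in the text. A further item is not reported here. The 5 genes most like ACVR1 were taken by Pearson correlation. Deviations from group means over 6853 genes correlated by 0.70, 0.31 and 0.34 between same-numbered miR-365a-3p arrays of the 2 lines. Of these arrays, 4 of 6 correlated best with their own number. Same-numbered control arrays of the 2 lines correlated by 0.12 and -0.13. The main fit held no term for the replicate number, and the replicate block was an alternative.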

Additional observations from a re-analysis of the deposited data

Results flagged for a closer look

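The response to miR-365a-3p differed between the cell lines, by the test of the difference itself in limma, for 6 of the genes named here. The response in SKOV3 cells minus that in MDA-MB-231 cells was 0.88 for SMAD3, 1.16 for THBS1 (adjusted p = 0.00132), 2.52 for CTGF and 1.02 for RGMB. It was -0.59 for SMAD6 (adjusted p = 0.0188) and -1.42 for ID3 (adjusted p = 0.023). The value for SMAD6 was not called on the deposited values (adjusted p = 0.213), after median centring (adjusted p = 0.204) or without SKOV3 control replicate 1 (adjusted p = 0.0796). The value for ID3 was not called in 7 of 17 alternatives, among them the replicate block (adjusted p = 0.0523). The SKOV3 control levels of SMAD3, THBS1, CTGF and RGMB lay less far above the lowest signals on the arrays than the falls in MDA-MB-231, so that equal falls could not have been registered, and the part of this in the differences was not tested.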

How the results depend on the processing

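In MDA-MB-231 cells 3 or 4 of the 9 genes other than ACVR1 were called under every alternative. In SKOV3 cells 3 were called in the main fit, 5 after cyclic loess, and fewer than 3 with SKOV3 fitted alone or with an intensity trend. On the deposited values and after median centring the set differed, since ACVR1B and SMAD2 were called there and SMAD7 was not. Leaving out single arrays also changed the set. Without SKOV3 control replicate 2, which leaves 1 control array, the SKOV3 differences of SMAD3 and SMAD7 were -0.45 and 0.17 and were not called. For the difference between the responses 1 was called, and 2 with only genes above the median signal or when the prior variance followed intensity. Of the 86 pathway genes 11 were called in SKOV3 cells, 23 on the deposited values, 20 with each array centred on its median and 5 to 15 with each array left out. Among differences called in the main fit or in the alternative, the signs that reversed were those of SMAD7 and PPM1A. On the deposited values and with median centring, SMAD7 turned to -0.099 and -0.067 in MDA-MB-231 cells and to -0.115 and -0.078 in SKOV3 cells. In the same settings PPM1A turned to -0.105 and -0.072 in MDA-MB-231 cells. Uncalled differences also changed sign over the alternatives, among them BMPR1A and SMAD4 in both lines and TGFBR2 in SKOV3 cells. The cause was not tested. Within a line, same-numbered arrays did not deviate together (correlations of -0.12, 0.04 and 0.23 in MDA-MB-231 cells and 0.04 and -0.07 in SKOV3 cells), and 1 of 6 arrays in MDA-MB-231 cells correlated best with its own number. With a replicate block, 3 and 4 of the 9 genes were called, the rise of SMAD7 in MDA-MB-231 cells (adjusted p = 0.0662) was not called, and ACVR1B in SKOV3 cells was called (adjusted p = 0.0461). Genes near the floor, TGFBR1 and SMAD2 among them, had little room for a fall.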
